A study of Mus musculus with 4 samples.

Results

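The constitutive proteasome genes of mouse embryonic fibroblasts (MEFs) were followed over 4 conditions. Members were the genes whose array name begins with Psma, Psmb, Psmc or Psmd and a number, without the inducible subunits Psmb8, Psmb9 and Psmb10. This gave 37 of the 31709 genes on the array, measured by 45 of its 39429 probes. Of these, 14 genes encode subunits of the 20S core (Psma1 to Psma7 and Psmb1 to Psmb7) and 17 encode subunits of the 19S cap (Psmc1 to Psmc6, Psmd1 to Psmd4, Psmd6 to Psmd8 and Psmd11 to Psmd14). The names do not mark constitutive subunits alone. The other 6 genes were the assembly chaperones Psmd5, Psmd9 and Psmd10, the tissue-restricted core subunits Psma8 (testis) and Psmb11 (thymus), and Psmc3ip, which encodes a meiotic recombination factor. They are described apart from the 31 subunits.

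RNA came from wild-type (WT, p53+/+) and p53-/- MEFs, each left untreated or treated with doxorubicin, an anthracycline that damages DNA and activates p53. Each genotype was thus measured untreated and treated, which gives 4 groups, with 1 one-color Agilent array for each, all on 1 slide. The study compared the genotypes without and with doxorubicin to find genes that depend on p53. The dose and time of treatment of the array samples, the passage and number of cultures, and the way the p53 allele was disrupted were not given in the sources used here. With 1 array per condition there is no replicate error and no comparison was tested, and a condition cannot be told apart from its position on the slide. The only measure of error is technical: log2 signals of repeat spots of 245 probes had an SD of 0.08 within an array, which gives an SD of 0.11 for a log2 ratio and of 0.15 for a difference of 2 log2 ratios.

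The proteasome degrades proteins that carry ubiquitin chains. Its 20S core is a barrel of outer alpha rings, which form the gate, and inner beta rings, in which Psmb5, Psmb6 and Psmb7 encode the catalytic subunits. The 19S cap has a base with a ring of ATPases (Psmc genes) that unfolds substrates, and a lid, whose subunit Psmd14 removes ubiquitin. Because subunits assemble at fixed ratios, their genes are usually expressed together, and the factor Nfe2l1 (NRF1), which binds antioxidant response elements (AREs), raises them when the proteasome is short of capacity.

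Promoters of the subunits were searched for the core letters of that element, TGACNNNGC, on both strands of the window from 250 bases before to 50 bases after the start of each gene (RefSeq, GRCm38.p6). A promoter was matched for 25 of the 31 subunits, and 4 of them (16%) held the letters, beside 14.0% of the 27025 genes in that table. The 4 sequences are shown because the binding factor's own gene, Nfe2l1, was measured on the same arrays. Each is 60 bases upstream of the gene's start, read 5′ to 3′ on the gene's strand, with the match in capitals.
Psmb5, chr14:54618008-54618067, minus strand: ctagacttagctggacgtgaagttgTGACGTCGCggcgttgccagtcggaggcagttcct
Psmb6, chr11:70525297-70525356, plus strand: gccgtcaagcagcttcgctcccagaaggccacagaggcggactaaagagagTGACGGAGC
Psmc6, chr14:45329574-45329633, plus strand: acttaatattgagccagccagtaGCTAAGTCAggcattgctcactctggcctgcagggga
Psmd12, chr11:107479278-107479337, plus strand: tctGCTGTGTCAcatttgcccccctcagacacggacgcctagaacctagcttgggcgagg
In Psmb5 and Psmb6 the letters lie on the gene's own strand, and in Psmc6 and Psmd12 on the opposite one. The match ended 39 bases before the start in Psmb5 and 1 base before it in Psmb6. In Psmc6 and Psmd12 it lay farther out, ending 219 and 239 bases before the start.

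The other motif searched was the CCAAT box, CCAAT on either strand, the site of the factor NF-Y. It was held by 10 of the 25 matched subunit promoters (40.0%) beside 41.1% of all genes, by 6 of 11 20S promoters (54.5%) and by 4 of 14 19S promoters (28.6%). No match of one motif overlapped a match of the other (0 overlaps). Windows of Psmb3 and Psmc1 are shown because these subunits had the highest doxorubicin ratios of the core and the cap in WT MEFs, as given later.
Psmb3, chr11:97703366-97703425, plus strand: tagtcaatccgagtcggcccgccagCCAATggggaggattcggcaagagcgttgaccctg
Psmc1, chr12:100110002-100110061, plus strand: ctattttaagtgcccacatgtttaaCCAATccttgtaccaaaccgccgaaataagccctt
The match ended 39 bases before the start in Psmb3 and 171 bases before it in Psmc1. Psmb3 holds another match of the same letters, which ended 81 bases before its start. The 10 subunits with the letters also include Psma7 and Psmd14, with doxorubicin ratios of −0.005 and −0.003 in WT MEFs. A link of the letters to the ratios was not tested.

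The labels were checked on Trp53, the gene for p53, and on the p53 targets Cdkn1a, Mdm2 and Ccng1. The Trp53 signal was 1228 and 3442 in untreated and doxorubicin-treated WT MEFs and 442 and 543 in the corresponding p53-/- MEFs, where the probe was still well above background. The signal of Cdkn1a, a p53 target that halts the cell cycle, was 28619 and 105995 in WT and 977 and 5912 in p53-/- MEFs in the same order. All 8 fibroblast markers were well above background on the 4 arrays. Of the markers of other cells, 3 to 5 of 6 leukocyte, 2 to 3 of 4 epithelial and 2 of 3 endothelial genes were called well above background. Epcam (epithelium) and Cdh5 (endothelium) were not called on any array. Krt8 and Krt18 (epithelium) and Pecam1 and Kdr (endothelium) were called on all 4, with Kdr signals from 5269 to 7434. The summed epithelial signal ranged from 9873 to 17324 on 3 arrays and was 42823 in doxorubicin-treated p53-/- MEFs, almost all from Krt18, and its part in the results was not tested. In such bulk RNA, fewer cells of a type and less RNA per cell cannot be told apart.

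All 31 subunits were bright, with signals from 2846 to 151210, far above the brightest negative control spot of any array (250.1), and none was saturated. Values are given below as scaled log2 signals, that is, log2 of the deposited signal minus that of the array's 75th percentile, so that a value of 0 is a signal as bright as that percentile. Levels of different probes were not compared. To compare arrays over many subunits, each subunit was set to its own mean over the 4 arrays. The median of the 14 core subunits was then −0.07 and 0.22 in WT MEFs without and with doxorubicin, and −0.14 and 0.01 in p53-/- MEFs. The median of the 17 cap subunits was −0.15, 0.19, −0.10 and 0.06 in the same order. Both parts of the proteasome thus stood highest in doxorubicin-treated WT MEFs. That array was the highest of the 4 for 22 of 31 subunits (10 of the core and 12 of the cap) and the lowest for 0. With quantile normalization it was the highest for 15 subunits and with arrays scaled to their median for 13. In both settings its median was still the highest of the 4, but by less than the SD of a ratio from repeat spots. With arrays scaled to their median, the core stood at 0.11 on that array and at 0.10 in untreated WT MEFs. After quantile normalization, the cap stood at 0.14 on that array and at 0.13 in treated p53-/- MEFs. Which array was lowest depended on the scaling. Untreated p53-/- MEFs were the lowest for 15 subunits, while treated p53-/- MEFs were the lowest for 19 with arrays scaled to their median. The values of the 4 arrays overlapped widely over the subunits.

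**Figure D1:**
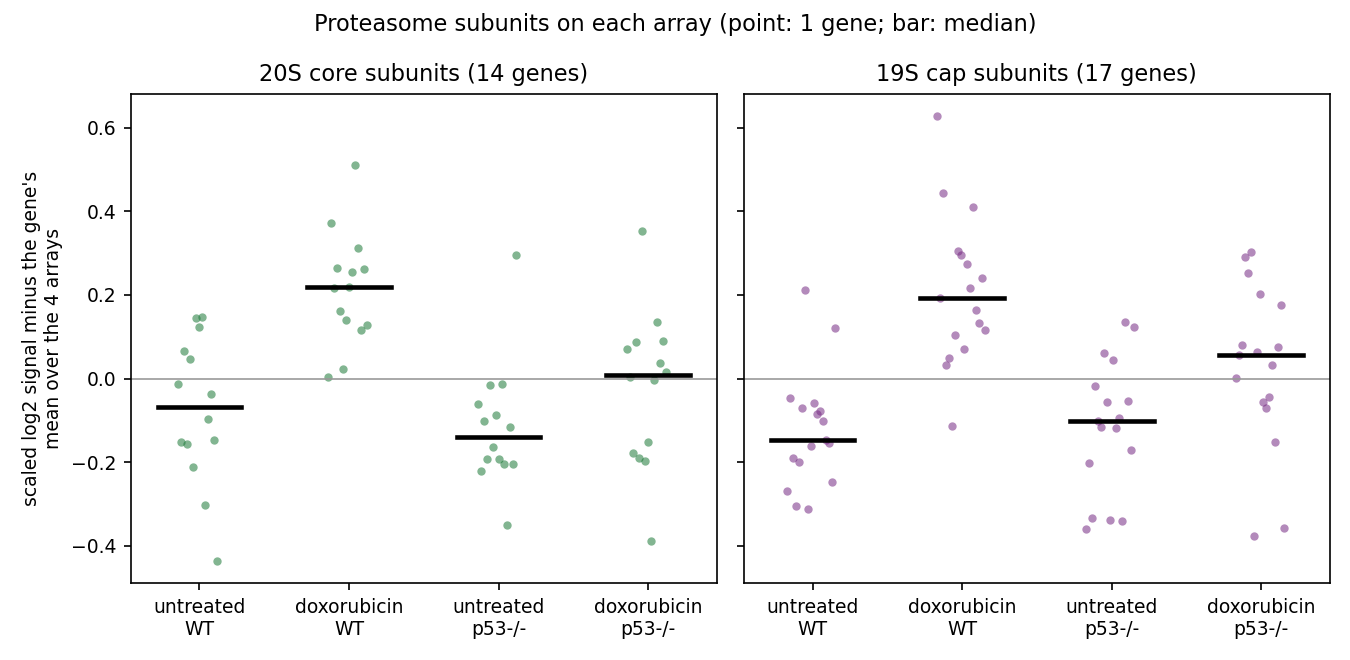
Scaled log2 signal of each 20S subunit (left, 14 genes) and 19S subunit (right, 17 genes) minus the gene's own mean over the 4 arrays, for each of the 4 conditions. Each point is 1 gene and each bar the median. At this scaling the bars stand highest in doxorubicin-treated WT MEFs, at 0.22 for the core and 0.19 for the cap. With arrays scaled to their median these were 0.11 and 0.08, beside 0.10 and 0.02 in untreated WT MEFs.

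In WT MEFs, 27 of the 31 subunits were higher with doxorubicin and 4 were lower, while with arrays scaled to their median these counts were 17 and 14. Of all genes measured, 8876 of 17513 were higher at the main scaling. The median log2 ratio of doxorubicin-treated over untreated was 0.19 for the core and 0.31 for the cap, beside 0.01 for the 17513 genes measured, and for the core it was −0.08 when arrays were scaled to their median. Over both parts the median was 0.30, a 1.23-fold higher signal and 0.29 above that of all genes. A total of 4 subunits reached a 1.5-fold higher signal (4 of 31, where 20.6% of all genes did), namely the ATPases Psmc1 (0.90) and Psmc3 (0.63), the core subunit Psmb3 (0.82) and the base scaffold Psmd2 (0.62). With arrays scaled to their median, 1 of them did (Psmc1, 0.62). None was at least 1.5-fold lower, as 20% of all genes were, and 0 were 2-fold apart either way, as 21.5% of all genes were. The lowest ratio was that of the base scaffold Psmd1, at −0.11, which is as large as the SD from repeat spots.

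In p53-/- MEFs, 22 subunits were higher with doxorubicin and 9 were lower, and with arrays scaled to their median these counts were 10 and 21. Of all genes measured, 8489 of 16953 were higher at the main scaling. The median log2 ratio was 0.14 for the core and 0.26 for the cap, beside 0.00 for the 16953 genes measured, and both medians were below 0 (−0.16 and −0.04) when arrays were scaled to their median. Without the filter on dim probes the median of all genes was 0.26, and the subunits (0.15 over both parts) then lay below it. At the main scaling, 0 subunits reached a 1.5-fold difference, up or down, where 19.4% of all genes were higher and 15.8% lower by that fold and 16.1% were 2-fold apart. With arrays scaled to their median, 3 subunits (Psmb2, Psmd1 and Psmd14) were lower by that fold, and after quantile normalization 1 (Psmd4) was higher. The ratios ran from −0.48 for Psmd14, the deubiquitinase of the lid, to 0.54 for Psmd4, a ubiquitin receptor of the base.

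Without doxorubicin the genotypes were close. The median log2 ratio of p53-/- over WT was −0.07 for the core and −0.02 for the cap. Of the subunits, 1 was at least 1.5-fold higher in p53-/- MEFs, namely Psmb7 (0.73), where 8.73% of all genes were, and 0 were lower by that fold, where 8.68% were. Again 0 subunits were 2-fold apart (4.77% of all genes). The lowest ratio was −0.32, for Psmb1.

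Between the treated arrays, 26 of the 31 subunits were lower in p53-/- than in WT MEFs (19 after quantile normalization). So were 8940 of all 17892 genes and 4023 of the 7200 genes at least as bright as the dimmest subunit. The log2 ratio of p53-/- over WT had a median of −0.26 for the core and −0.24 for the cap, a 0.846-fold signal over both, beside 0.00 for all genes. After quantile normalization these medians were −0.16 and −0.092. Relative to the genes at least as bright as the dimmest subunit, an alternative chosen after seeing the data, they were −0.17 and −0.15. The 2 subunits lower by at least 1.5-fold were Psmb2 (−0.64) and Psmc1 (−0.63), where 19.7% of all genes were, and 0 were higher by that fold, where 22.8% of all genes were. After quantile normalization Psmb2 alone was lower by that fold, and relative to these bright genes 0 were. None was 2-fold apart (0 of 31 beside 22.2% of all genes). Psmc6 had the highest ratio, 0.42. These 4 comparisons share arrays, so that a high value on 1 array enters several of them.

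The difference of the doxorubicin ratios, WT minus p53-/-, had a median of 0.13 for the core and 0.22 for the cap (0.12 after quantile normalization), beside 0.01 over 16513 genes. The ratio was the higher one in WT MEFs for 24 of 31 subunits (77.4%, beside 50.9% of all genes). At this scaling, 21 of the 31 subunits were higher with doxorubicin in both genotypes (67.7%, beside 32.7% of all genes), 6 were higher in WT and lower in p53-/- MEFs, 1 (Psmc6) was the other way, and 3 were lower in both. Differences of at least 1.5-fold in favor of WT MEFs were found for Psmb7 (0.84), Psmb3 (0.61) and Psmd11 (0.60), which is 3 of 31 beside 18.4% of all genes. In the other direction there were 0, beside 19.9% of all genes, and 0 subunits were 2-fold apart in this difference, beside 18.2%. The count of 3 in favor of WT MEFs was 2 after quantile normalization and 4 with the mean of all probes of a gene. The dimmer probe of Psmc1 had a difference of 0.78.

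**Figure D2:**
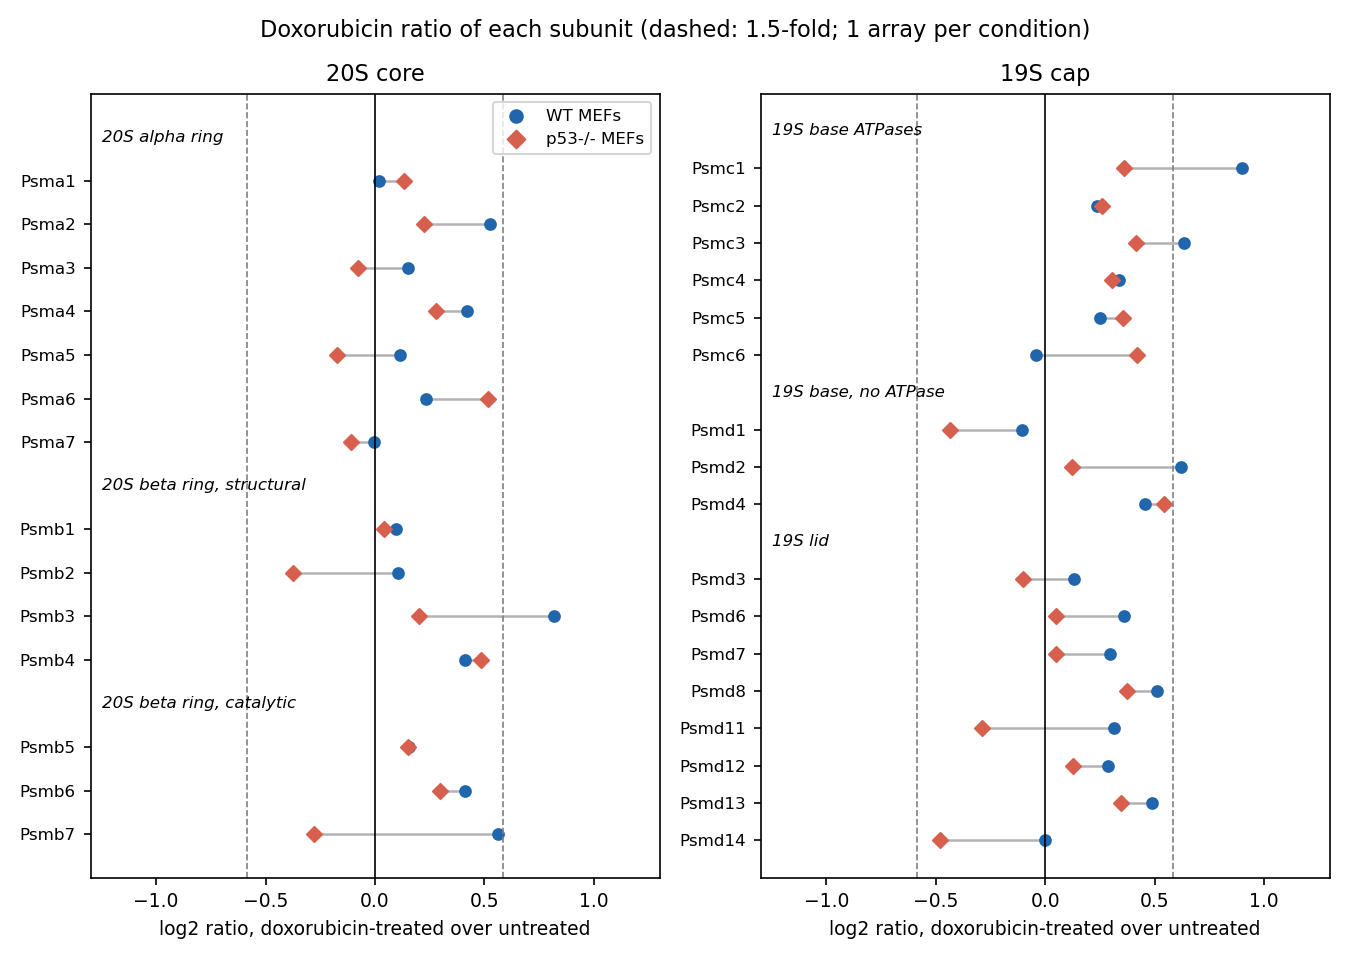
Log2 ratio of doxorubicin-treated over untreated signal for each 20S subunit (left) and 19S subunit (right), in WT MEFs (circles) and p53-/- MEFs (diamonds), 1 array per condition; dashed lines mark 1.5-fold. Circles of Psmc1, Psmb3, Psmc3 and Psmd2 lie beyond the upper line, no diamond lies beyond either line at this scaling, and 24 of 31 circles lie to the right of their diamond; scaling to array medians moves the points to lower values.

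The contrast of core and cap had no replicate error and was read from medians alone. The median of the core minus that of the cap was −0.12 in the doxorubicin ratio of WT MEFs, −0.12 in that of p53-/- MEFs, −0.05 between the untreated genotypes and −0.02 between the treated genotypes. For the difference of the doxorubicin ratios it was −0.09, and 0.01 after quantile normalization, where the medians were 0.13 for the core and 0.12 for the cap. As a description of the genes, ratios within the core had an SD of 0.24 in WT and 0.27 in p53-/- MEFs, and those within the cap of 0.26 and 0.31. The core and cap values overlapped over most of their range in each comparison.

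The ratios of the subunits had a narrower spread than those of all genes. In WT MEFs the SD over the 31 doxorubicin ratios was 0.25, beside 0.98 over all genes. In p53-/- MEFs it was 0.29, beside 0.81. Because bright genes vary less, the subunits were also set beside the 7200 genes that were measured on the 4 arrays with a mean signal at least that of the dimmest subunit, a set chosen after seeing the data. Their SD was 0.79 in WT and 0.64 in p53-/- MEFs, and 14.8% and 12.2% of them were at least 1.5-fold higher with doxorubicin. A share of 77.4% of the subunits (24 of 31) stayed under 1.5-fold in all 5 comparisons, beside 41.9% of the bright genes and 32.6% of all genes. A narrow spread was not particular to the subunits, since the 6 ubiquitin genes read for comparison had SDs of 0.31 in WT and 0.25 in p53-/- MEFs. The 7 subunits that did not are Psmb2, Psmb3, Psmb7, Psmc1, Psmc3, Psmd2 and Psmd11.

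**Figure D3:**
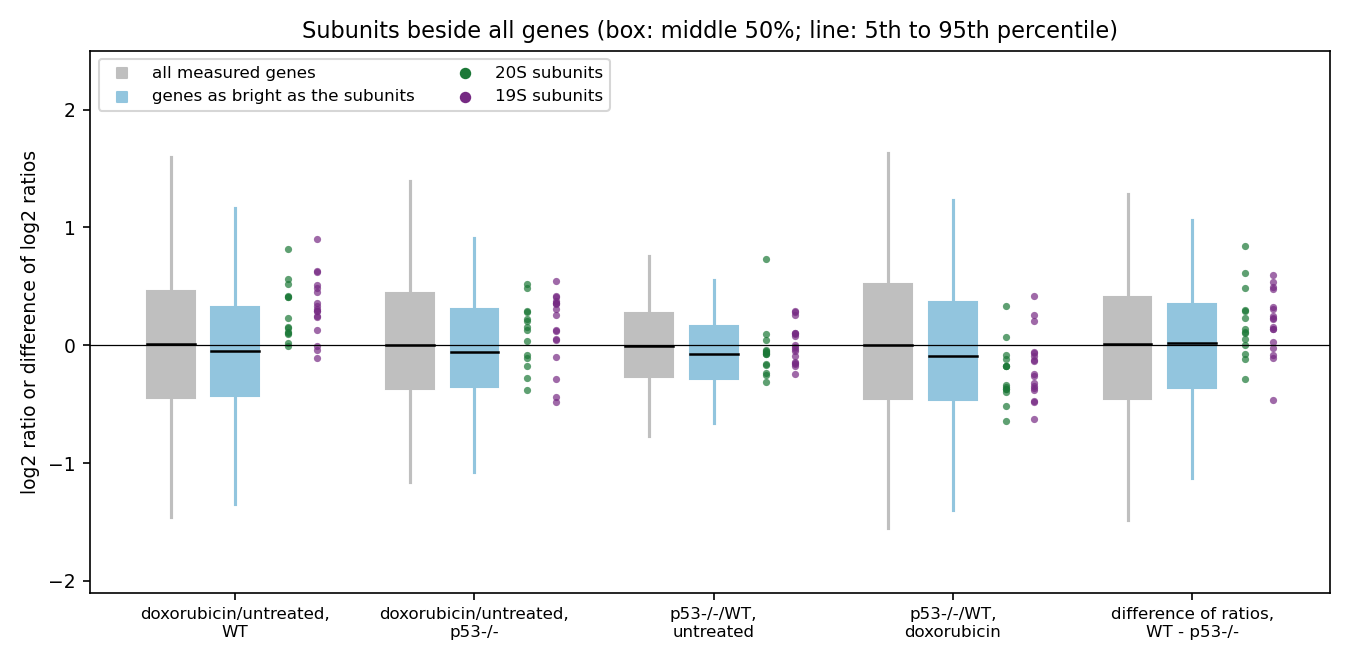
Log2 ratios in the 4 comparisons and the difference of the doxorubicin ratios, for all measured genes (grey) and for genes at least as bright as the dimmest subunit (blue). Boxes show the middle 50% with a line from the 5th to the 95th percentile, beside each 20S (green) and 19S (purple) subunit as a point. The points span a narrow band in each comparison; in WT MEFs with doxorubicin they run from −0.11 to 0.90, while the line of all genes runs from −1.46 to 1.60.

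Within the alpha ring, which forms the gate of the core, doxorubicin ratios ran from −0.01 to 0.52 in WT and from −0.17 to 0.52 in p53-/- MEFs. Psma2 had the largest difference in favor of WT MEFs. Its scaled log2 signal was 5.27 and 5.79 in untreated and treated WT and 5.20 and 5.43 in untreated and treated p53-/- MEFs, which gives ratios of 0.52 and 0.23 and a difference of 0.30. Psma6 stood at the other end, with 2.68 and 2.92 in WT and 2.73 and 3.25 in p53-/- MEFs, ratios of 0.23 and 0.52, and a difference of −0.28. For Psma2 the treated WT array was the highest of the 4, and for Psma6 the treated p53-/- array was. With doxorubicin, 5 of the 7 alpha genes were lower in p53-/- than in WT MEFs.

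Among the structural beta subunits Psmb1 to Psmb4, all 4 had a lower signal in treated p53-/- than in treated WT MEFs, with ratios of −0.18 to −0.64, though after quantile normalization 3 of 4 did. Psmb3 had scaled log2 signals of 4.74 and 5.56 in untreated and treated WT MEFs and 4.84 and 5.05 in p53-/- MEFs. It stood highest on the treated WT array. The doxorubicin ratio was 0.82 in WT MEFs and 0.20 without p53, a difference of 0.61. Psmb4 showed no such gap, at 5.10 and 5.51 in WT and 4.85 and 5.34 in p53-/- MEFs (ratios of 0.41 and 0.49, difference −0.08). In Psmb4 both treated arrays stood above both untreated ones at this scaling. With arrays scaled to their median, its treated p53-/- value was below its untreated WT value.

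The catalytic subunits are those with peptidase activity, and they did not move as 1 group. Psmb7, the subunit with trypsin-like activity, had the largest difference of all 31 subunits. Its scaled log2 signal was 2.59 in untreated WT, 3.15 in treated WT, 3.32 in untreated p53-/- and 3.04 in treated p53-/- MEFs. The untreated WT array was the low one and the untreated p53-/- array the high one, so that the ratio was 0.56 in WT and −0.28 in p53-/- MEFs (difference 0.84) and the untreated genotypes differed by 0.73. It rests on 1 probe, whose ends lie on chr2:38468966-38489385 (mm9), a stretch far longer than the 60 letters of a probe, so the probe crosses a splice junction. Psmb5, the chymotrypsin-like subunit and main target of proteasome inhibitors, was even between the genotypes. It had 5.53 and 5.68 in WT and 5.45 and 5.61 in p53-/- MEFs, ratios of 0.15 and 0.15. Psmb6, the caspase-like subunit, gave 0.41 for WT and 0.30 for p53-/- MEFs. Psmb5 and Psmb6 are the core genes with the ARE letters shown above. Like most subunits (24 of 31), both stayed under 1.5-fold in all comparisons.

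By the SD over genes, the ATPases of the base, which unfold substrates and open the gate, were the most even class in p53-/- MEFs. All 6 were higher with doxorubicin there, with ratios from 0.26 to 0.42 and an SD over genes of 0.06. In WT MEFs they ran from −0.04 to 0.90 with an SD of 0.33. The SD of 0.06 is below the 0.11 of a ratio from repeat spots, so such evenness cannot be resolved. With arrays scaled to their median, 5 of 6 were higher in p53-/- MEFs, with ratios from −0.04 to 0.12. Dimmer probes gave 0.23 for Psmc1 and Psmc2 and 0.55 for Psmc3 in p53-/- MEFs at the main scaling. Psmc1 had scaled log2 signals of 5.07 and 5.97 in untreated and treated WT MEFs and 4.98 and 5.34 in p53-/- MEFs. Its treated WT value was the highest of the 4 by a wide margin, and the ratios of 0.90 and 0.36 differed by 0.54. The dimmer probe of Psmc1 gave 1.01 in WT and 0.23 in p53-/- MEFs, so it was past 2-fold in WT MEFs. Psmc6, which carries the ARE letters, leaned the other way, with 2.11 and 2.07 in WT and 2.07 and 2.49 in p53-/- MEFs. At this scaling Psmc6 was high on the treated p53-/- array alone, and its difference of −0.46 was the lowest of the 31 subunits.

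The base also holds Psmd1 and Psmd2, scaffolds that bind ubiquitin-related proteins, and Psmd4, a ubiquitin receptor. Psmd2 had 4.38 and 5.0 in untreated and treated WT and 4.64 and 4.76 in p53-/- MEFs, ratios of 0.62 and 0.12, and a difference of 0.50. The untreated WT array was the low one for Psmd2. Psmd4 had 5.01 and 5.47 in WT and 4.83 and 5.37 in p53-/- MEFs (difference −0.09), with both treated arrays above both untreated ones. Psmd1 was lower with doxorubicin in both genotypes, by −0.11 in WT and −0.44 in p53-/- MEFs.

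Every member of the lid leaned the same way between the genotypes. For all 8 lid genes the doxorubicin ratio was higher in WT than in p53-/- MEFs, by 0.14 to 0.60, also after quantile normalization. Scaling arrays to their median raises all differences by the same amount (the smallest was then 0.16), so it could not change these signs. For all 8 the treated p53-/- signal was the lower one, with ratios of −0.06 to −0.48, and after quantile normalization it was for 6 of 8. The smallest of these values, 0.14 and −0.06, lie within the SD from repeat spots. The 8 genes share the same 4 arrays and are not independent. This direction was not particular to the lid. All 3 catalytic beta subunits and all 6 ubiquitin genes went the same way in both measures. So did 24 of the 31 subunits in the difference and 26 between the treated arrays. Psmd11, a lid scaffold known to promote assembly of the 26S form, had scaled log2 signals of 2.04 and 2.35 in WT and 2.32 and 2.04 in p53-/- MEFs. Its values crossed over, with ratios of 0.31 and −0.29 and a difference of 0.60. Psmd8 had 3.24 and 3.76 in WT and 3.0 and 3.38 in p53-/- MEFs and the smallest difference of the lid, 0.14. Psmd12, with the ARE letters, had ratios of 0.29 and 0.13. The deubiquitinase Psmd14 was even in WT (0.00) and lower in p53-/- MEFs (−0.48).

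The median of the differences by class was 0.14 for the alpha ring, 0.27 for structural and 0.11 for catalytic beta subunits, 0.01 for the ATPases, 0.33 for the other base subunits and 0.24 for the lid. The ATPases thus stood near 0, with 3 genes on either side. Classes hold 3 to 8 genes each and their ranges overlap.

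A further check came from the 6 subunits with a pair of probes on the array (Psma4, Psmb5, Psmc1, Psmc2, Psmc3 and Psmd12). In WT MEFs the probes of a gene gave doxorubicin ratios 0.06 (Psma4) to 0.24 (Psmd12) apart, and in p53-/- MEFs 0.02 to 0.14 apart. In both genotypes, the paired probes of each of these 6 subunits had the same sign at the main scaling. With arrays scaled to their median, the probes of Psma4 and of Psmc1 had opposite signs in p53-/- MEFs. Between the untreated genotypes, where ratios were small, the probes of 4 of the 6 (Psma4, Psmb5, Psmc1 and Psmc3) had opposite signs. The gap was largest there for Psmc1, at 0.29, where the probes gave −0.09 and 0.19. Gaps of this size are as large as many of the differences given above. The other 25 subunits rest on 1 probe each, Psmb7, Psmb3 and Psmd11 among them.

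Of the 6 genes found by name that are not constitutive subunits, Psma8 and Psmb11 were not well above background on any array, with signals of at most 17.6 and 23.1. The chaperones of base assembly, which hold ATPases until the ring closes, were less even than the subunits. Psmd5 had 1.12 and 1.73 in untreated and treated WT and 1.09 and 1.65 in p53-/- MEFs, ratios of 0.61 and 0.56. Psmd9 had 0.27 and −0.21 in WT and 0.40 and 0.54 in p53-/- MEFs, a difference of −0.61. Psmd5 was thus higher with doxorubicin in both genotypes, while Psmd9 was lower in WT MEFs.

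Psmd10 (gankyrin), which is also known to bind the p53 regulator Mdm2, had −0.68 and −0.05 in WT and −1.11 and −0.11 in p53-/- MEFs. Its ratios were 0.63 for WT and 1.01 for p53-/- MEFs, the latter a 2.01-fold higher signal. Its dimmer probe gave 0.11 and 1.11, so the probes are 0.52 apart in WT MEFs. For Psmd9 the probes gave −0.47 and −0.06 in WT and 0.14 and 0.47 in p53-/- MEFs. Psmc3ip had −1.38 and −1.82 in WT and −0.61 and 0.21 in p53-/- MEFs. It was lowest on the treated WT array and highest on the treated p53-/- array, which gives ratios of −0.44 and 0.83, a difference of −1.27, and a treated p53-/- signal 4.08-fold that of WT.

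Other genes of the pathway were read from a list of 38 symbols. In WT MEFs 34 of these were measured, of which 5 were at least 1.5-fold higher and 3 lower with doxorubicin, where 20.6% and 20% of all genes were. In p53-/- MEFs the counts were 7 higher and 4 lower of 33, where 19.4% and 15.8% of all genes were. Adrm1 and Sem1 encode cap subunits that do not carry a Psm name. Adrm1, a ubiquitin receptor, had scaled log2 signals of 2.83 and 3.41 in WT and 3.08 and 2.96 in p53-/- MEFs, ratios of 0.58 and −0.12. Sem1 had ratios of 0.10 and −0.10. For both, the ratio was higher in WT MEFs and the treated p53-/- signal was below the treated WT signal. This is the direction of all 8 lid genes and of most other subunits.

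Among assembly factors of the core, Pomp, which guides maturation of the beta rings, gave ratios of 0.63 for WT and 0.61 for p53-/- MEFs. The alpha ring chaperones Psmg1 to Psmg4 did not follow it. Psmg1 had ratios of −1.01 and −0.59, Psmg2 of −0.33 and −0.28, and Psmg3 of 0.06 and 0.30. Psmg4 stood apart by genotype, with 0.47 and −0.58 in WT and 0.20 and 0.55 in p53-/- MEFs (ratios −1.05 and 0.35). Both Psmg1 and Psmg4 were thus at least 2-fold lower with doxorubicin in WT MEFs, while no core subunit was lower there by even 1.5-fold.

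The inducible subunits replace Psmb6, Psmb7 and Psmb5 in the immunoproteasome. Psmb9 had scaled log2 signals of −3.80 and −0.01 in WT and −4.24 and −1.05 in p53-/- MEFs, ratios of 3.79 and 3.19; on the untreated arrays its signals were 149 and 99.5, near or below the brightest negative control spots (108 and 250.1). Psmb8 had −1.69 and −1.60 in WT and −1.86 and 1.38 in p53-/- MEFs, ratios of 0.09 and 3.24. Psmb10 had 2.87 and 2.56 in WT and 2.6 and 4.10 in p53-/- MEFs, ratios of −0.31 and 1.5. Psmb9 was high on both treated arrays, and Psmb8 and Psmb10 on the treated p53-/- array only. Their constitutive counterparts were all under 1.5-fold between treated and untreated MEFs of both genotypes.

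Of the activators, which cap the core in place of the 19S, Psme1 had ratios of 0.25 and 0.58 and Psme2 of 0.78 and 1.21 in WT and p53-/- MEFs. Psme4 (PA200) had ratios of 0.32 and −0.77 and Psme3 (PA28 gamma) of 0.11 and −0.11. The core inhibitor Psmf1 had 0.70 and 0.36. Uchl5, a deubiquitinase that docks on Adrm1, had ratios of −0.69 and 0.11, and its signal in p53-/- MEFs was 1.78-fold that of WT without and 3.08-fold with doxorubicin.

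The regulator Nfe2l1 had scaled log2 signals of −0.85 and −1.11 in untreated and treated WT and −1.34 and −0.95 in p53-/- MEFs, ratios of −0.26 and 0.39. Nfe2l1 activity is known to be set largely by processing of the protein, which arrays do not measure. Nfe2l2 (NRF2), which binds the same element, had 2.77 and 2.86 in WT and 1.78 and 2.39 in p53-/- MEFs. Their partner Mafk had 1.92 as its WT ratio and 1.66 as its p53-/- ratio.

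**Figure D4:**
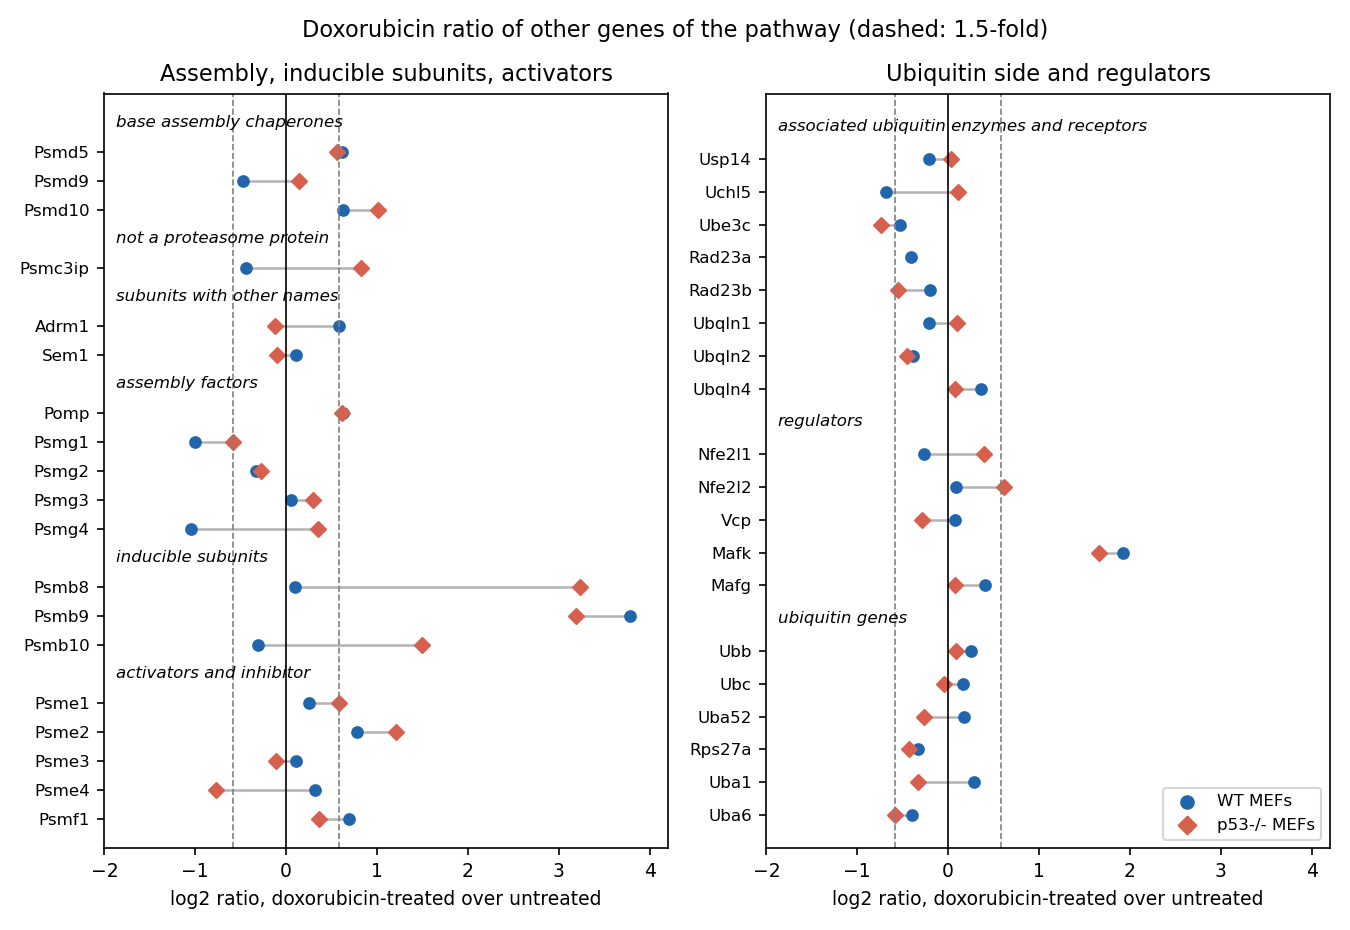
Log2 ratio of doxorubicin-treated over untreated signal for the assembly chaperones, Psmc3ip and the other genes of the pathway, in WT MEFs (circles) and p53-/- MEFs (diamonds), 1 array per condition; dashed lines mark 1.5-fold and a missing symbol is a ratio that was not measured. The inducible subunits Psmb8, Psmb9 and Psmb10 reach 3.24, 3.19 and 1.5 in p53-/- MEFs, while most other genes lie within 1 of 0.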

How the data were processed

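RNA of 4 MEF samples was measured on Agilent 4x44K v2 arrays. Per the labels, 200 ng of total RNA was labeled with Cy3. The deposited intensity (processed signal of Feature Extraction 10.7.3.1) was background-subtracted and detrended by that program and not normalized between arrays. A deposited table of intensities held the same values, within a relative tolerance of 1e-05, at all 44397 spots per array.

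Outlier spots were left out, log2 intensities of the spots of a probe were averaged, and each array's 75th percentile (signals of 2074, 1819, 1881 and 2421) was subtracted. Each gene was read from the brightest of its probes (mean of the 4 arrays), named through RefSeq (GRCm38.p6) where its accession or symbol matched, and a ratio needed that probe well above background on the arrays compared. Python 3.11.15, numpy 2.4.6 and pandas 2.3.3 were used, with limma 3.58.1 for normexp. The ratio calculation was tested on simulated data. Values on every array were given for the highest and lowest difference in each class and for members at least 2-fold apart. The members, classes and lists were chosen with earlier results of these data known.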

Additional observations from a re-analysis of the deposited data

Results flagged for a closer look

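These genes had doxorubicin ratios of opposite sign in WT and p53-/- MEFs, each beyond 2 SD of a ratio from repeat spots (0.22). With 1 array per condition the differences were not tested. Opposite signs of any size were common. Of 16513 genes, 2937 were higher in WT and lower in p53-/- MEFs and 2757 the other way, beside 6 and 1 of the 31 subunits. The share of all genes beyond 2 SD in both ratios is not given here, so these genes cannot be called unusual. Among the subunits they were Psmb7 (0.56 and −0.28, difference 0.84) and Psmd11 (0.31 and −0.29, difference 0.60). Psmc3ip, found by its name only, had −0.44 and 0.83 (difference −1.27). Among the other genes of the pathway, the difference was −1.81 for Psmb10, −1.40 for Psmg4 and −0.65 for Nfe2l1, which were lower in WT and higher in p53-/- MEFs, and 1.09 for Psme4 and 0.62 for Uba1, which were the reverse. For these 8 genes both signs were kept in 10 of 10 other settings. The changed filters, the wider lists and the deposited table cannot change the ratios of these genes, so their result was fixed in advance. With arrays scaled to their median, only 3 of the 8 (Psmb7, Psmc3ip and Psmb10) had both ratios beyond 2 SD. There the WT ratio was 0.036 for Psmd11, 0.044 for Psme4 and 0.013 for Uba1, and the p53-/- ratio was 0.052 for Psmg4 and 0.094 for Nfe2l1.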

How the results depend on the processing

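Scaling arrays to their median moved the median of all genes to −0.27 in the doxorubicin ratio of WT and −0.30 in that of p53-/- MEFs. In WT MEFs the core median was then −0.081 and the cap median 0.036, with 1 subunit at least 1.5-fold higher, and in p53-/- MEFs they were −0.16 and −0.040, with 3 subunits lower by that fold. The subunits stayed 0.29 (WT) and 0.15 (p53-/-) above the median of all genes, since both shift together. Quantile normalization gave 1 subunit higher in p53-/- MEFs, and between treated genotypes a cap median of −0.092 and 1 subunit lower. With the chaperones and tissue-restricted genes in the lists, 1 gene was higher in p53-/- MEFs, the cap median between treated genotypes was −0.13 and core minus cap −0.13, 1 gene was higher in that comparison, and 1 had a difference in favor of p53-/- MEFs. Relative to genes at least as bright as the dimmest subunit, an alternative chosen after seeing the data, 1 subunit was higher in p53-/- MEFs and 0 were lower between treated genotypes. The other 6 alternatives (the percentile over detected probes, normexp, no filter, the filter on 4 arrays, the mean of probes, the deposited table) left each of the 25 values within 1 SD of a ratio or 1.5 times its count. Of these, the 2 filter settings and the deposited table could not change the subunit values. The subunits were well above background on the 4 arrays, and that table held the same signals. No paired analysis was possible because each condition has 1 array. With 1 slide no block for the slide could be fitted, and no array could be left out.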
